A study of Mus musculus with 18 samples.

Results

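Kidneys of mice on a high fat diet and STZ that were also given AOS (HS_AOS) were compared with kidneys of mice on the same diet and STZ alone (HS). The comparison used 6 of the 18 samples of the series, taken by their group labels, and 11865 of the 19545 genes in the table, those with at least 1 FPKM (fragments per kilobase of transcript, scaled to the size of the library) in at least 3 of these 6 samples. The other 7680 genes were not tested.

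The series is RNA sequencing of whole kidney from ICR mice, an outbred albino stock, aged 10 weeks, in 6 groups of 3 samples. HS_AOS mice had the high fat diet, STZ and AOS at 10 mg/kg, and HS mice had the diet and STZ without AOS, so the diet and the toxin were common to both groups. STZ is streptozotocin, which kills pancreatic beta cells and so raises blood glucose, and the labels do not spell out AOS. The AOS group (AOS at 10 mg/kg without HS) and the control group (no treatment in the labels) served for a second contrast, and the HS_AOS_FMT and HS_control_FMT groups, which had HS and a transfer labelled by AOS or by control, entered the fit. The labels give a dose of 10 mg/kg for HS_AOS_FMT as well, and none for HS_control_FMT. Nothing in the labels states that a group's 3 samples were separate mice, so p-values rest on a spread between samples that may be technical.

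The kidney's proximal tubule reabsorbs most filtered glucose, amino acids, bicarbonate and phosphate, and it meets the energy demand of that transport mainly by oxidizing fatty acids in mitochondria. The nuclear receptor PPARA drives the genes of that oxidation, and heat shock proteins hold unfolded proteins when cells are stressed. Many kidney genes also follow the circadian clock, in which CLOCK and BMAL1 (the product of Arntl) switch on their own repressors, so the hour at which a kidney is taken sets the level of these genes.

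The libraries listed 15773 to 17270 of the 19545 genes above 0. No read counts are given in the table, and the spacing of the lowest values would put the libraries at 8.44 to 11.7 M reads if 1 step is 1 read, which only a minority of the low values followed. Across genes, control 3 stood apart from the rest of the series (correlations of 0.949 to 0.967 with the other libraries). Proximal tubule transport genes other than amino acid transporters summed to 8241, 9010 and 8093 FPKM in HS_AOS 1, 2 and 3, against 7767, 8078 and 7305 FPKM in HS 1, 2 and 3. Of the 6 libraries, HS 3 carried other tissue: adrenal markers summed to between 3.6 and 4.73 FPKM in the HS_AOS libraries, against 693 FPKM in HS 3 and 3.87 to 5.78 FPKM in the other HS libraries. Adipose markers summed to between 109 and 240 FPKM in HS_AOS, against 1790 FPKM in HS 3 and 122 to 333 FPKM in HS 2 and HS 1. Of 12 germ cell markers, 9 were listed at 0 in all 6 libraries.

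In HS_AOS against HS, 328 of the 11865 genes (2.76%) passed limma at a Benjamini-Hochberg adjusted p of 0.05, with 159 higher (1.34%) and 169 lower (1.42%). Without adjustment 2490 genes (21.0%) had a p under 0.05. Of all genes, 11.2% (1327) were higher and 9.8% (1163) lower at that limit. The unadjusted counts of the lists below are to be read beside these shares. The 3 values of one group lay wholly above or below the 3 of the other for 25.3% of all genes and for all 328 that passed. The changes were small: the median log2 change was 0.43 over the genes that rose and -0.50 over those that fell, taken on log2(FPKM + 1), a scale on which changes of lowly expressed genes come out too small. With quantile normalization 505 genes passed, 297 higher and 208 lower, so the larger side turned. The count rested on both HS 2 and HS 3. Without HS 2 or without HS 3 the number called was 0 (1855 and 1618 at an unadjusted p under 0.05), while it was 549 without HS 1, 826 without HS_AOS 1, 76 without HS_AOS 2 and 17 without HS_AOS 3. Each call named below therefore ended when HS 2 or HS 3 was left out. It was 0 as well without the 3 libraries richest in adrenal transcripts (control 3, HS 3 and HS_AOS_FMT 2), with 2130 at an unadjusted p under 0.05.

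Ppara, the receptor that drives fatty acid oxidation (chromosome 15, 85734910 to 85806851), had 25.9, 20.5 and 18.1 FPKM in HS_AOS 1, 2 and 3, against 12.8, 9.96 and 12.8 FPKM in HS 1, 2 and 3. The groups did not overlap, and the lowest HS_AOS library stood above the highest HS library. The rise was 0.80 on the log2 scale (SE 0.141, adjusted p = 0.0161). Akr1e1, an aldo-keto reductase (chromosome 13, 4591123 to 4609164), had 81.7, 78.03 and 86.8 FPKM in HS_AOS 1, 2 and 3, against 51.1, 36.4 and 40.01 FPKM in HS 1, 2 and 3. The 3 HS_AOS values lay close together and above all HS values (log2 0.95, SE 0.209, adjusted p = 0.0327). Mttp, the protein that puts triglyceride into nascent lipoproteins (chromosome 3, 138089855 to 138143418), had 9.25, 11.6 and 9.1 FPKM in HS_AOS 1, 2 and 3, against 6.1, 5.57 and 4.59 FPKM in HS 1, 2 and 3, again without overlap (log2 0.77, SE 0.14, adjusted p = 0.0167).

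The other genes with the largest rises served varied roles. Slc35f3, a solute carrier, averaged 10.3 ± 1.29 FPKM in HS_AOS and 5.21 ± 0.621 in HS (SD, n = 3 each, as below), and Tnfrsf21, a receptor that can trigger cell death, 53.7 ± 14 FPKM in HS_AOS and 30.4 ± 4.58 in HS. Aass, the first enzyme of lysine breakdown, averaged 208 ± 21.2 FPKM in HS_AOS and 130 ± 27 in HS, and Nat2, an acetyltransferase of drugs and amines, 20.2 ± 3.32 FPKM in HS_AOS and 12.3 ± 1.48 in HS. Fnip2, a partner of folliculin in nutrient sensing, averaged 19.6 ± 2.23 FPKM in HS_AOS and 11.5 ± 0.456 in HS. Zkscan7, a zinc finger protein, averaged 3.84 ± 0.548 FPKM in HS_AOS and 1.9 ± 0.25 in HS, and Dzip1, a protein of the base of the cilium, 4.08 ± 0.513 FPKM in HS_AOS and 2.14 ± 0.903 in HS. Their adjusted p-values lay between 0.0144 and 0.0443.

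Among the genes that fell most, Hspb1 and Nfil3 are described with their groups below. Defb29, a beta-defensin (chromosome 2, 152538714 to 152540041), had 108, 123 and 129 FPKM in HS_AOS 1, 2 and 3, against 253, 202 and 255 FPKM in HS 1, 2 and 3. All HS_AOS values were well under the lowest HS value (log2 -0.97, SE 0.191, adjusted p = 0.0255). Pet100, an assembly factor of cytochrome c oxidase, had 15.2, 9.18 and 5.79 FPKM in HS_AOS 1, 2 and 3, against 19.6, 19.6 and 19.1 FPKM in HS 1, 2 and 3. HS was even, and HS_AOS spread widely below it with HS_AOS 3 lowest (log2 -0.98, SE 0.211, adjusted p = 0.0318). Cnbd2, with a cyclic nucleotide-binding domain, averaged 3.88 ± 0.522 FPKM in HS_AOS and 9.28 ± 1.98 in HS. Hsd17b2, which inactivates oestradiol and testosterone, averaged 4.85 ± 1.93 FPKM in HS_AOS and 10.2 ± 2.48 in HS, and Rbp7, a retinol-binding protein, 2.52 ± 0.585 FPKM in HS_AOS and 5.87 ± 1.57 in HS. Zfp979, a zinc finger gene with close relatives beside it on chromosome 4, was listed at 0, 0.16 and 0.08 FPKM in HS_AOS 1, 2 and 3, against 2.73, 3.36 and 3.71 FPKM in HS 1, 2 and 3. It was 1 of 4 called genes under 1 FPKM in all 3 HS_AOS libraries, which entered the test through the HS libraries alone and so had to differ. How reads of such relatives were shared out is not given in the sources used here.

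**Figure D1:**
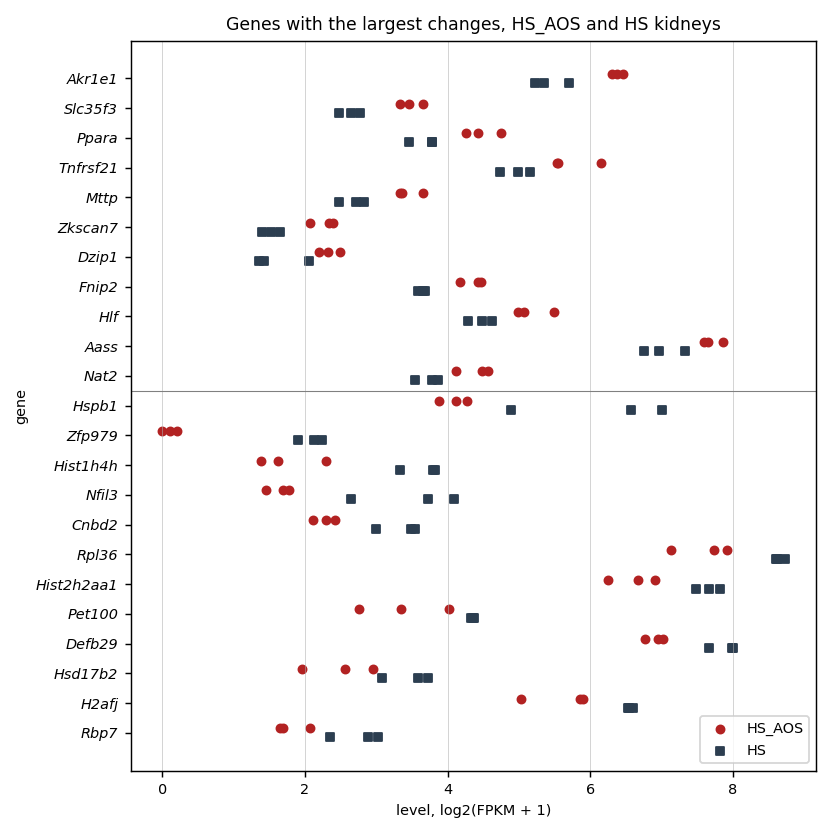
Level of 11 of the 12 genes with the largest rises (above the line) and the 12 with the largest falls (below it) on the scale of log2(FPKM + 1), with 1 point per library, HS_AOS as circles and HS as squares below them. The circles and squares of a gene do not overlap, and for Hspb1 and Nfil3 the HS squares spread more widely than the HS_AOS circles.

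GC content and transcript length moved with the comparison. The genes that rose were long and poor in GC, with medians of 4577 bases and 44.3%, those that fell were short and rich in GC, with 1758 bases and 55.8%, and all tested genes had 3301 bases and 49.8%. Genes with a GC content under 40% had a median log2 change of 0.17, and those above 60% had -0.26. Of the 481 genes above 60%, 28 fell and 0 rose. The slope was not common to the HS_AOS libraries: the rank correlation of a library's deviation with GC content, across genes, which are not independent, was 0.119 in HS_AOS 1, -0.248 in HS_AOS 2 and -0.611 in HS_AOS 3, against 0.218, 0.346 and 0.306 in HS 1, 2 and 3. After each library's trend with GC and length was removed, over the 11757 genes with a GENCODE transcript (99.1% of those tested), limma called 10 genes (0.0851%), 5 in each direction, and gave 1536 genes an unadjusted p under 0.05. Ppara (log2 0.80, adjusted p = 0.0478) and Nat2 (log2 0.63, adjusted p = 0.0478) stayed called among the genes named above. The other 8, named after their values were seen, were Nxt2, Oard1 and Arl10, which rose, and Mydgf, Zmynd19, Srp19, Arpc5l and B4galt3, which fell. Nxt2, a cofactor of messenger RNA export, had the smallest adjusted p of the 10 after the removal (0.0171), with 45.9, 52.3 and 57.9 FPKM in HS_AOS 1, 2 and 3, against 36.5, 33.6 and 32.9 FPKM in HS 1, 2 and 3. Srp19 and Arl10 were not among the 328.

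**Figure D2:**
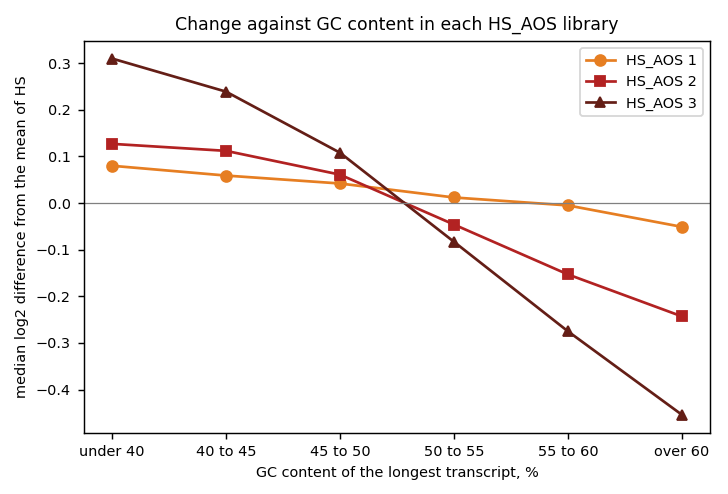
Median log2 difference of each HS_AOS library from the mean of the 3 HS libraries, for genes grouped by the GC content of their longest transcript, with 1 line per HS_AOS library. Above 60% GC the medians were -0.05, -0.24 and -0.45 in HS_AOS 1, 2 and 3, and under 40% they were 0.08, 0.13 and 0.31.

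The balance of clock genes of opposite phase differed between the libraries of the groups. A clock score was taken as the mean log2 level of 10 genes (Per1, Per2, Per3, Dbp, Tef, Hlf, Nr1d1, Nr1d2, Ciart and Bhlhe41) less that of 5 genes of the opposite phase (Arntl, Npas2, Clock, Cry1 and Nfil3). It was 3.53, 1.77 and 1.85 in HS_AOS 1, 2 and 3, against 0.521, 0.365 and 0.106 in HS 1, 2 and 3. All HS_AOS scores were above all HS scores, HS_AOS 1 stood furthest out, and the control libraries themselves spanned -0.996 to 2.46. The hour of collection is not given in the sources used here, so a shift in that hour and AOS cannot be told apart for these genes.

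Of 22 clock genes tested, 16 of the core and 6 of its output, 2 passed higher (beside 1.34% of all genes) and 1 lower (beside 1.42%). With the GC and length trend removed 0 of them passed. Hlf, an activator of the PAR-bZIP family (chromosome 11, 90336535 to 90390917), had 43.9, 30.7 and 32.6 FPKM in HS_AOS 1, 2 and 3, against 23.6, 21.4 and 18.5 FPKM in HS 1, 2 and 3, without overlap (log2 0.72, SE 0.124, adjusted p = 0.0151). Nfil3, the repressor that competes with HLF, TEF and DBP for the same sites (chromosome 13, 52967209 to 52982878), had 1.73, 2.24 and 2.43 FPKM in HS_AOS 1, 2 and 3, against 5.29, 16.1 and 12.2 FPKM in HS 1, 2 and 3. HS_AOS was evenly low, while HS 2 and HS 3 were far above HS 1 (log2 -1.85, SE 0.405, adjusted p = 0.0327, with a change of -2.27 to -1.55 as single libraries were left out). Rora, which activates Arntl, averaged 7.43 ± 0.794 FPKM in HS_AOS and 5.26 ± 0.369 in HS (log2 0.43, adjusted p = 0.0318).

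Dbp, the most rhythmic of the PAR-bZIP activators, had 166, 44.4 and 40.1 FPKM in HS_AOS 1, 2 and 3, against 11.2, 12.2 and 7.33 FPKM in HS 1, 2 and 3. The groups were apart, but HS_AOS 1 was several-fold above the other HS_AOS libraries, and the difference did not pass (log2 2.62, adjusted p = 0.109). Tef, the third of that family, had 136, 74.9 and 95.5 FPKM in HS_AOS 1, 2 and 3, against 51.7, 53.6 and 43.3 FPKM in HS 1, 2 and 3 (log2 0.99, adjusted p = 0.062). Among the repressors of CLOCK and BMAL1, Per3 had 9.89, 4.1 and 4.47 FPKM in HS_AOS 1, 2 and 3, against 1.6, 2.36 and 1.5 FPKM in HS 1, 2 and 3 (log2 1.27, adjusted p = 0.0962). For Dbp, Tef and Per3 all HS_AOS libraries were above all HS libraries. Ciart, a further repressor, was at 21.7, 4.87 and 5.14 FPKM in HS_AOS 1, 2 and 3, against 0.97, 1.47 and 1.38 FPKM in HS 1, 2 and 3 (adjusted p = 0.151), and Nr1d2, which represses Arntl, averaged 30.5 ± 4.36 FPKM in HS_AOS and 13.9 ± 0.617 FPKM in HS (adjusted p = 0.091). Per1 and Per2 overlapped: Per1 was at 10.1, 4.52 and 4.03 FPKM in HS_AOS 1, 2 and 3, against 3.68, 8.43 and 5.33 in HS 1, 2 and 3, and Per2 at 13.6, 3.26 and 4.49 FPKM in HS_AOS 1, 2 and 3, against 2.39, 5.67 and 4.04 in HS 1, 2 and 3.

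Of the activators, Arntl had 0.49, 4.33 and 3.03 FPKM in HS_AOS 1, 2 and 3, against 8.18, 8.46 and 8.93 FPKM in HS 1, 2 and 3, with the HS libraries close together and HS_AOS 1 near 0 (log2 -1.58, adjusted p = 0.0834). Npas2, which can stand in for CLOCK, had 0.43, 2.65 and 2.96 FPKM in HS_AOS 1, 2 and 3, against 4.7, 5.05 and 5.3 FPKM in HS 1, 2 and 3 (adjusted p = 0.187). Clock itself averaged 7.08 ± 1.77 FPKM in HS_AOS and 7.21 ± 0.0907 in HS. Cry1 averaged 0.747 ± 0.272 FPKM in HS_AOS and 1.46 ± 0.556 in HS, Cry2 5.07 ± 1.8 FPKM in HS_AOS and 2.76 ± 0.0473 in HS, and Nr1d1 45 ± 10.3 FPKM in HS_AOS and 27.1 ± 6.63 in HS. Bhlhe40, Csnk1d, Csnk1e, Wee1 and Usp2 had log2 differences between -0.12 and 0.66 and did not pass.

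**Figure D3:**
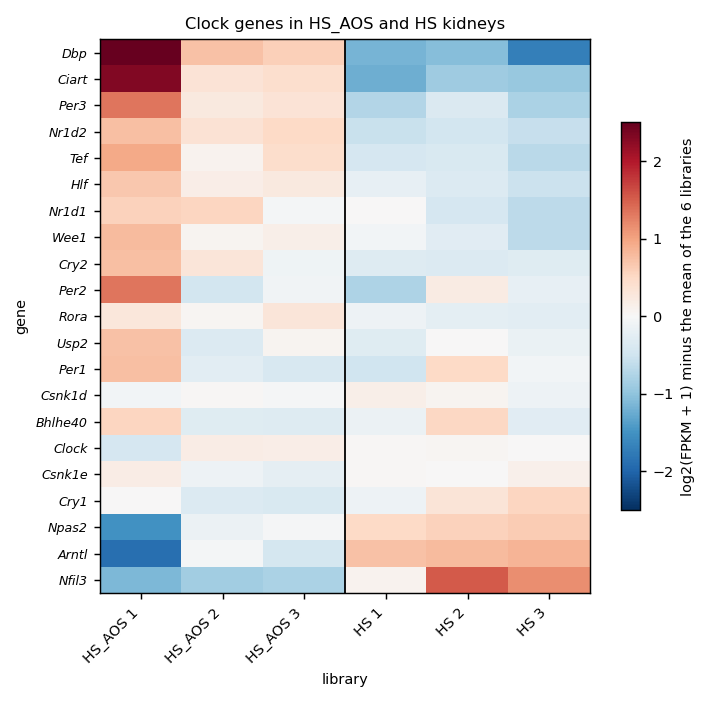
Clock genes in the 6 libraries, as log2(FPKM + 1) less the mean of the 6 libraries (colour), with HS_AOS left of HS and genes ordered by their difference. HS_AOS 1 has the deepest colours, for Dbp and Ciart above and for Arntl and Npas2 below, and the 3 HS libraries differ most from each other for Nfil3, Per1 and Per2.

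With the clock score as a covariate, 1135 genes passed, with 342 that were higher (2.88%) and 793 that were lower (6.68%). They held 207 of the 328, and the median over all genes was -0.09, beside 0.01 without the covariate. Ppara (log2 0.60, adjusted p = 0.0355) and Hlf (log2 0.49, adjusted p = 0.0323), itself part of the score, stayed called in that fit. Nfil3, also part of the score, had log2 -0.92 (adjusted p = 0.108) and Akr1e1 0.76 (adjusted p = 0.0782), and neither passed. With the clock score and the GC and length removal together, Ppara (log2 0.61, adjusted p = 0.065) and Hlf (log2 0.27, adjusted p = 0.266) did not pass. The slope on the score comes from its spread within groups, which was widest in control (-0.996, -0.27 and 2.46 in control 1, 2 and 3). All values with this covariate, here and below, therefore lean on control 3, the library that stood apart. No fit with the score was run without control 3.

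The promoters of Per3 and Tef, which did not pass, are printed as examples of windows with a motif bound by clock proteins. Dbp, Ciart, Nfil3 and Arntl had larger differences (log2 2.62, 2.05, -1.85 and -1.58). Whether these motifs set the levels was not tested. The windows run from 250 bases before to 50 bases after the RefSeq transcription start (build GRCm38.p6). Both strands were searched for the E-box CACGTG, to which CLOCK and BMAL1 bind, and the D-box TTATGTAA, to which DBP, TEF, HLF and NFIL3 bind, and matches are in capitals. The Per3 window (chr4:151044616-151044915, minus strand) holds 2 D-boxes, a motif found in 1.11% of the windows of 27025 genes, and the first of the Tef windows (chr15:81802423-81802722, plus strand) holds 1 E-box, found in 8.09%. Over the 9401 tested genes with a window the D-box was in 0.681% and the E-box in 11.9%. Of the 13 core clock genes with a window, 1 held a D-box and 4 an E-box, as did 0 and 1 of the 5 output genes.
Per3: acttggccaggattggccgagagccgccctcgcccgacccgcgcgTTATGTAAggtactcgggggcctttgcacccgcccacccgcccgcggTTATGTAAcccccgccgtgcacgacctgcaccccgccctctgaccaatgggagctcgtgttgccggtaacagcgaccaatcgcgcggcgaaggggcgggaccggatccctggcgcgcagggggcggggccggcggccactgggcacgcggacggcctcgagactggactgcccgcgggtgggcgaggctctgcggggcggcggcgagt
Tef: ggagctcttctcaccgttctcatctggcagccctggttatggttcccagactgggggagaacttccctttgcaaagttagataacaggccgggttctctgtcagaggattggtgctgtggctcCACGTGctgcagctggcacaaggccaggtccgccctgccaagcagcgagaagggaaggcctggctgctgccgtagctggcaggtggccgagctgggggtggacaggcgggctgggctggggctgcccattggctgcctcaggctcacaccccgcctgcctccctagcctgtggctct
The windows of Hlf, Nfil3 and Ppara hold neither motif, nor TTCNNGAA, a part of the heat shock element, or the direct repeat bound by PPARA.

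Among the genes of fatty acid oxidation, 2 of the 38 tested passed (5.26%), both higher, beside 1.34% of all genes, and 31 of the 38 had a positive log2 change. Their median log2 change was 0.26, beside 0.01 over all tested genes, and 5 of the 38 (13.2%) had HS_AOS wholly above HS, beside 14.0% of all genes, a share near the background. Ppara is given above. Slc22a5, which brings carnitine into the cell, had 107, 119.8 and 98.2 FPKM in HS_AOS 1, 2 and 3, against 95.3, 71.4 and 73.1 FPKM in HS 1, 2 and 3, with HS_AOS 3 only just above HS 1 (log2 0.44, SE 0.11, adjusted p = 0.0457).

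The members below were chosen after their values were seen. Cyp4a14, a fatty acid hydroxylase and target of PPARA, had 57.6, 67.4 and 60.3 FPKM in HS_AOS 1, 2 and 3, against 68.8, 6.25 and 6.41 FPKM in HS 1, 2 and 3 (log2 2.01, adjusted p = 0.341). HS 1 was just above the HS_AOS range while HS 2 and HS 3 were far below it, so the large mean difference came from the low HS 2 and HS 3. Vnn1, another target of PPARA, showed the same order, with 54.04, 56.5 and 45.8 FPKM in HS_AOS 1, 2 and 3, against 74.1, 18.2 and 22.7 FPKM in HS 1, 2 and 3. Over the list, HS 1 was the highest of the 3 HS libraries for 32 of the 38 members (84.2%, beside 33.4% of all tested genes) and HS 2 the lowest for 32 (84.2%, beside 29.2%). The median of the list was 0.08 without HS 2 and 0.36 without HS 1, it was 0.21 with the GC and length trend removed, and with the clock score as a covariate it was -0.01.

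In gluconeogenesis, by which the kidney makes glucose, 0 of 11 members passed limma. At an unadjusted p under 0.05, 3 were higher (beside 11.2% of all genes), and the median log2 change was 0.19. Mdh1, the cytosolic malate dehydrogenase, averaged 784 ± 59.3 FPKM in HS_AOS and 680 ± 33.4 FPKM in HS (log2 0.20, adjusted p = 0.143). Pck1, its rate-setting enzyme, had 2659.9, 2108 and 1845 FPKM in HS_AOS 1, 2 and 3, against 2395, 775 and 799 FPKM in HS 1, 2 and 3 (log2 0.93, adjusted p = 0.166), and again HS 1 lay among the HS_AOS values. Of 19 genes of triglyceride assembly, export and lipolysis, 1 passed (Mttp, higher, 5.26% beside 1.34% of all genes) and the median was 0.00. Apob, the lipoprotein onto which MTTP loads triglyceride, was chosen after its values were seen and had 67.3, 60.2 and 45.2 FPKM in HS_AOS 1, 2 and 3, against 75.4, 9.01 and 8.28 FPKM in HS 1, 2 and 3. In fatty acid synthesis (15 tested, median -0.09) and in cholesterol synthesis and uptake (22 tested, median -0.03), 0 members passed limma, with 1 lower in synthesis of fatty acids and 1 on either side in that of cholesterol at an unadjusted p under 0.05. Stard4, which carries cholesterol between membranes, averaged 12.8 ± 0.994 FPKM in HS_AOS and 8.95 ± 0.666 FPKM in HS (log2 0.47, adjusted p = 0.121), and Pmvk, an enzyme of the mevalonate pathway, 5.76 ± 0.693 FPKM in HS_AOS and 8.1 ± 1.36 FPKM in HS (log2 -0.42, adjusted p = 0.135). Srebf1, which switches on fatty acid synthesis, averaged 5.89 ± 1.09 FPKM in HS_AOS and 8.69 ± 3.14 FPKM in HS (adjusted p = 0.223). In glycolysis (16 tested, median -0.08) and in insulin and FOXO signalling (14 tested, median 0.13), 0 passed as well. At an unadjusted p under 0.05, 2 were lower in glycolysis (beside 9.8% of all genes) and 4 higher in insulin and FOXO signalling (beside 11.2%). Among glycolytic enzymes Pkm, a pyruvate kinase, averaged 78.2 ± 10 FPKM in HS_AOS and 117 ± 14.9 FPKM in HS (log2 -0.58, adjusted p = 0.205) and Aldoa, an aldolase, 727 ± 74.4 FPKM in HS_AOS and 884 ± 117 FPKM in HS (log2 -0.28, adjusted p = 0.163). Insr, the insulin receptor, averaged 12.5 ± 0.974 FPKM in HS_AOS and 9.44 ± 0.631 FPKM in HS (log2 0.37, adjusted p = 0.0765). Foxo1 had 13.3, 13.03 and 12.8 FPKM in HS_AOS 1, 2 and 3, against 9.8, 9.83 and 10.3 FPKM in HS 1, 2 and 3, small but without overlap (log2 0.36, adjusted p = 0.0831).

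Heat shock genes were mostly lower in HS_AOS. Of 26 tested, 2 passed (7.69%), both lower, beside 1.42% of all genes, 20 had a negative log2 change, and the median log2 change was -0.48, beside 0.01 over all tested genes. HS_AOS lay wholly below HS for 6 of the 26 (23.1%, beside 11.3% of all genes). Hspb1, a small chaperone that protects the actin skeleton (chromosome 5, 135887919 to 135889563), had 16.4, 13.7 and 18.3 FPKM in HS_AOS 1, 2 and 3, against 28.8, 94.3 and 127 FPKM in HS 1, 2 and 3. HS_AOS was even, HS 1 stood just above it and HS 2 and HS 3 far above (log2 -2.07, SE 0.436, adjusted p = 0.0313, with log2 -1.65 without HS 3 and -2.70 without HS 1). Hspe1, the co-chaperonin of mitochondria (chromosome 1, 55088148 to 55091317), had 243, 229.6 and 271 FPKM in HS_AOS 1, 2 and 3, against 326, 336 and 392 FPKM in HS 1, 2 and 3, a smaller fall that all HS libraries shared (log2 -0.50, SE 0.111, adjusted p = 0.0327).

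The next members were chosen after their values were seen. Hspd1, the chaperonin with which HSPE1 works, had 255, 331 and 379 FPKM in HS_AOS 1, 2 and 3, against 304, 274 and 312 FPKM in HS 1, 2 and 3, with overlapping groups (log2 0.10, adjusted p = 0.764). Cryab, a small chaperone related to HSPB1, had 40.1, 19.7 and 14.4 FPKM in HS_AOS 1, 2 and 3, against 47.05, 97.2 and 91.5 FPKM in HS 1, 2 and 3 (log2 -1.68, adjusted p = 0.086). Hspa1b, an inducible form of HSP70 whose near-identical copy Hspa1a makes its own level uncertain, had 8.66, 7.82 and 32.03 FPKM in HS_AOS 1, 2 and 3, against 11.98, 174 and 129 FPKM in HS 1, 2 and 3 (log2 -2.24, adjusted p = 0.169). For Hspa1b, HS 1 lay inside the HS_AOS range, and HS 2 and HS 3 were far above it. Over the list HS 1 was the lowest of the 3 HS libraries for 22 of the 26 members (84.6%, beside 40.9% of all tested genes), and its value lay inside the HS_AOS range for 17 of them, beside 5 of 26 for HS 2 and 5 of 26 for HS 3. With the GC and length trend removed 0 of the 26 passed (Hspb1 log2 -1.68, adjusted p = 0.103, and Hspe1 log2 -0.42, adjusted p = 0.0711). The list's median was -0.48 in that fit too. It was -0.09 with the clock score as a covariate, where 2 passed lower and 1 higher, and lay between -0.66 (without HS 1) and -0.35 (without HS 2) as single libraries were left out.

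**Figure D4:**
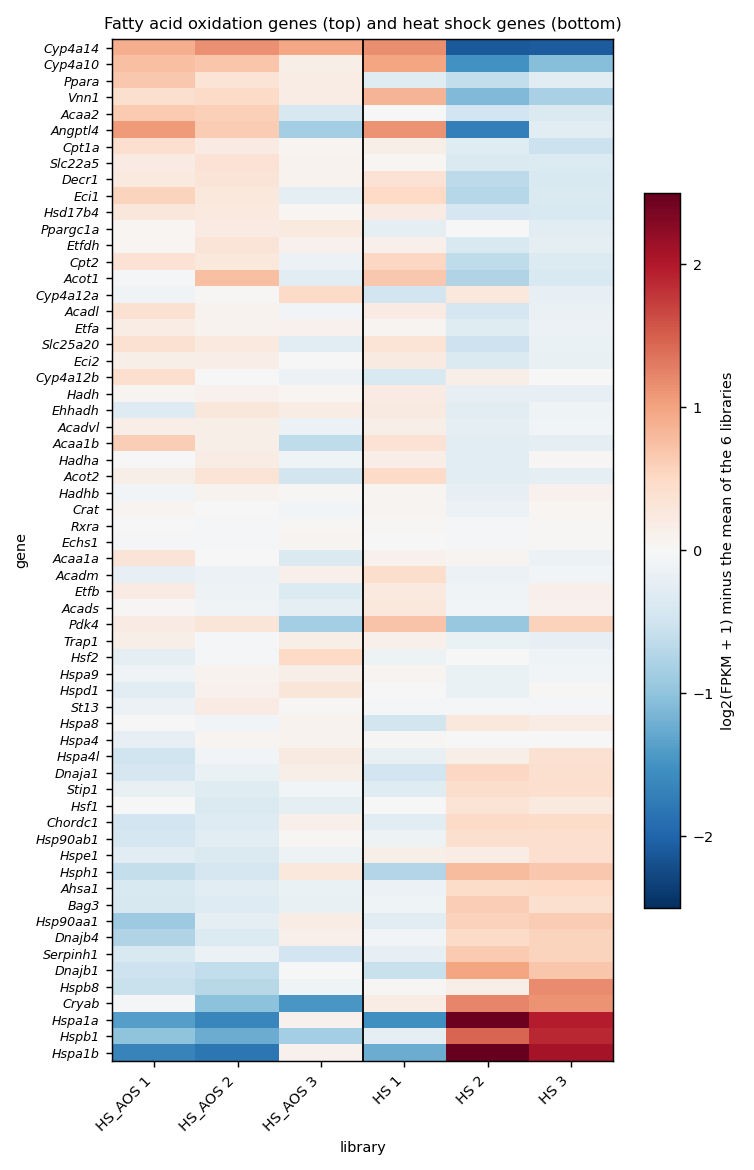
Fatty acid oxidation genes (top) and heat shock genes (bottom) in the 6 libraries, as log2(FPKM + 1) less the mean of the 6 libraries (colour), with HS_AOS left of HS. For Cyp4a14 HS 1 has the colour of the HS_AOS libraries, for the Hspa1 genes that of HS_AOS 1 and 2, and HS 2 and HS 3 have the opposite colour.

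Hspe1, which fell, and Hspd1, which did not pass, lie head to head on chromosome 1 around the promoter shown here. The Hspe1 window (chr1:55087898-55088197, plus strand, 250 bases before to 50 after the RefSeq start in GRCm38.p6) is printed below. Its 2 adjacent matches to TTCNNGAA, a part of the heat shock element, are in capitals. That motif, searched on both strands, is found in 9.60% of the windows of 27025 genes and in 5 of the 19 heat shock genes that have a window (26.3%).
Hspe1: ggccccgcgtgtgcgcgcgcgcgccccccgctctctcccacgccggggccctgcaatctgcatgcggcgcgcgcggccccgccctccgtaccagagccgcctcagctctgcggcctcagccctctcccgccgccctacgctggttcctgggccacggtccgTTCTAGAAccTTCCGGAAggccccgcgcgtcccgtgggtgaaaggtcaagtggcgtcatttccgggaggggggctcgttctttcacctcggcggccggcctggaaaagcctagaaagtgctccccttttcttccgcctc
The second of the Hspd1 windows (chr1:55087883-55088182, minus strand) shares 285 bases with the Hspe1 window and holds the same 2 matches read from the other strand. The Hspb1 window holds none of the 4 motifs in the form searched. Only TTCNNGAA was searched for the heat shock element. The search therefore could not find that element with its parts in the reverse order, GAA before TTC. The Hspb1 window holds gaagtttc and gaaccttc, which have that order. How often other windows hold it was not counted, and whether these bases set the level of Hspb1 was not tested.

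Genes of folding in the endoplasmic reticulum had a median log2 change of -0.18 over 22 members, and 1 passed, lower (4.55%, beside 1.42% of all genes). Creld2, a secreted chaperone of the unfolded protein response, had 14.5, 16.8 and 14.3 FPKM in HS_AOS 1, 2 and 3, against 21.1, 28.5 and 34.8 FPKM in HS 1, 2 and 3, without overlap (log2 -0.82, SE 0.197, adjusted p = 0.0424). In the ATF4 stress response (16 tested, median -0.34), 1 passed (6.25%), and it went up, beside 1.34% of all genes: Vldlr, a lipoprotein receptor, averaged 15.7 ± 0.649 FPKM in HS_AOS and 12.3 ± 0.954 FPKM in HS (adjusted p = 0.0396). Hmox1, the stress-induced enzyme that breaks down heme (chromosome 8, 75093618 to 75100593), had 28.8, 38.04 and 47.2 FPKM in HS_AOS 1, 2 and 3, against 56.1, 56.6 and 66.6 FPKM in HS 1, 2 and 3. It was the 1 of 25 antioxidant and heme genes that passed (log2 -0.66, SE 0.159, adjusted p = 0.0418), or 4.0% beside the 1.42% of all genes that passed lower. The median of that list was -0.04. Among the 21 immediate early genes tested, 0 passed limma and the median was -0.43. At an unadjusted p under 0.05, 5 were lower, beside 9.8% of all genes. Cyr61, a matrix protein induced early after injury, had 10.4, 14.8 and 19.9 FPKM in HS_AOS 1, 2 and 3, against 35.1, 29.4 and 31.2 FPKM in HS 1, 2 and 3, without overlap (log2 -1.07, adjusted p = 0.0902), and Jund, a subunit of AP-1, 34.1 ± 8.99 FPKM in HS_AOS and 54.9 ± 4.44 FPKM in HS (adjusted p = 0.0612). Among 11 glucocorticoid-induced genes and metallothioneins 0 passed limma, with 1 on either side at an unadjusted p under 0.05. Nr3c1, the glucocorticoid receptor, had 20.2, 23.1 and 26.4 FPKM in HS_AOS 1, 2 and 3, against 17.04, 17.9 and 17.9 FPKM in HS 1, 2 and 3 (log2 0.37, adjusted p = 0.0658), without overlap, and Mt1, a metallothionein, was at 234, 153 and 120.2 FPKM in HS_AOS 1, 2 and 3, against 234, 437 and 369 FPKM in HS 1, 2 and 3 (adjusted p = 0.237).

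Subunits of the respiratory chain were mostly lower in HS_AOS, by small steps. Of the 79 nuclear-encoded subunits tested, 7 passed (8.86%), all lower, beside 1.42% of all genes, 64 had a negative log2 change, and for 33 (41.8%, beside 11.3% of all genes) HS_AOS lay wholly below HS. Ndufa2, of complex I, had 135, 123 and 84.3 FPKM in HS_AOS 1, 2 and 3, against 171, 174 and 197 FPKM in HS 1, 2 and 3 (log2 -0.68, SE 0.134, adjusted p = 0.0253). Uqcr10, of complex III, had 776, 797 and 554 FPKM in HS_AOS 1, 2 and 3, against 1078, 1017 and 1104 FPKM in HS 1, 2 and 3 (log2 -0.61, SE 0.126, adjusted p = 0.0283). For both genes HS_AOS 3 was lowest and HS was even. Cox5a, of complex IV, had 506, 539 and 508 FPKM in HS_AOS 1, 2 and 3, against 618, 680.4 and 704 FPKM in HS 1, 2 and 3, and there HS_AOS 3 did not stand out (log2 -0.36, adjusted p = 0.0318). Ndufb7 and Ndufv3 of complex I, Atp5d of the ATP synthase and Uqcrh of complex III also fell (log2 -0.65, -0.60, -0.41 and -0.35). The list's median log2 change was -0.23. With the GC and length trend removed it was -0.03 and 0 of the 79 passed, and with the clock score as a covariate it was -0.42 with 42 lower and 1 higher. HS_AOS 3, whose rank correlation with GC content was -0.611, was the lowest HS_AOS library for 56 of the 79 (70.9%), beside 39.6% of all tested genes.

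Cytosolic ribosomal proteins were mostly lower too: 73 of 78 had a negative log2 change, 30 (38.5%, beside 11.3% of all genes) had HS_AOS wholly below HS, and 1 passed (1.28%, beside 1.42% of all genes). Rpl36, of the large subunit, had 240.4, 211 and 139 FPKM in HS_AOS 1, 2 and 3, against 388, 393 and 425 FPKM in HS 1, 2 and 3 (log2 -1.06, SE 0.267, adjusted p = 0.0484), and its level is uncertain because such genes have processed pseudogenes. The median of the list was -0.26, it was -0.08 with the GC and length trend removed, where 0 passed, and it was -0.58 with the clock score as a covariate, where 54 of the 78 passed, all lower. HS_AOS 3 was the lowest HS_AOS library for 56 of the 78 (71.8%). Proteasome subunits showed no such shift, with a median of -0.02 and 0 of 37 passing limma. At an unadjusted p under 0.05, 1 was higher and 5 were lower, beside 11.2% and 9.8% of all genes. Psmb5, a catalytic subunit, averaged 132 ± 23.3 FPKM in HS_AOS and 173 ± 2.81 FPKM in HS (log2 -0.40, adjusted p = 0.0612).

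Among 16 replication-dependent histone genes tested, of 64 in the table, 2 passed (12.5%), both lower, beside 1.42% of all genes, and the median was -0.44, beside 0.01 over all tested genes. With the GC and length trend removed the median was -0.21 and 0 passed. Hist2h2aa1, a histone H2A gene, had 74.9, 119 and 101 FPKM in HS_AOS 1, 2 and 3, against 177, 202 and 224 FPKM in HS 1, 2 and 3 (log2 -1.05, SE 0.155, adjusted p = 0.0144). Hist1h4h, a histone H4 gene, had 2.09, 3.92 and 1.61 FPKM in HS_AOS 1, 2 and 3, against 13.1, 9.1 and 12.9 FPKM in HS 1, 2 and 3 (adjusted p = 0.0404). H2afj, an H2A variant outside that list, averaged 49.1 ± 15.2 FPKM in HS_AOS and 93.2 ± 2.6 in HS (log2 -0.96, adjusted p = 0.0214). Histone genes exist as near-identical copies, so the split of reads among them is uncertain, and with the GC and length trend removed Hist2h2aa1 had log2 -0.52 (adjusted p = 0.304). Cell cycle genes (15 tested, median -0.03) and p53 targets (14 tested, median 0.03) had 0 members that passed limma, with 0 and 1 at an unadjusted p under 0.05, the 1 being Aen, a nuclease of apoptosis, at 16.1 ± 0.774 FPKM in HS_AOS and 23.7 ± 3.02 FPKM in HS (log2 -0.52, adjusted p = 0.13).

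Transporters of the proximal tubule were mostly higher in HS_AOS. Of 30 tested apart from amino acid transporters, 2 passed (6.67%), both higher, beside 1.34% of all genes, 22 had a positive log2 change, and the median was 0.27. With the GC and length trend removed the median was 0.18 and 0 passed. For 9 of the 30 (30.0%, beside 14.0% of all genes) HS_AOS lay wholly above HS. Slc9a3, the sodium-proton exchanger of the brush border (chromosome 13, 74086255 to 74169442), had 38.9, 35.4 and 36.4 FPKM in HS_AOS 1, 2 and 3, against 25.7, 26.6 and 22.2 FPKM in HS 1, 2 and 3, with both groups tight (log2 0.56, SE 0.105, adjusted p = 0.0228). Slc4a4, which passes bicarbonate on to the blood side, had 120.05, 175 and 166 FPKM in HS_AOS 1, 2 and 3, against 115, 111 and 105 FPKM in HS 1, 2 and 3, with HS_AOS 1 close to the HS values (log2 0.46, SE 0.117, adjusted p = 0.0487). Both transporters serve the reclaiming of filtered bicarbonate. Lrp2 and Cubn, the receptors that take up filtered protein, were chosen after their values were seen. Lrp2 had 137, 178 and 184 FPKM in HS_AOS 1, 2 and 3, against 125, 129.96 and 119 FPKM in HS 1, 2 and 3 (log2 0.40, adjusted p = 0.129), and Cubn 50.9, 60.1 and 61.6 FPKM in HS_AOS 1, 2 and 3, against 45.9, 42.9 and 45.6 in HS 1, 2 and 3 (log2 0.35, adjusted p = 0.0785). Slc22a7, an organic anion transporter also chosen after its values were seen, went the other way without passing, with 14.1, 14.4 and 61.9 FPKM in HS_AOS 1, 2 and 3, against 44.5, 96.3 and 122 FPKM in HS 1, 2 and 3 (adjusted p = 0.143).

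Of 15 amino acid transporters 0 passed limma, 3 were higher at an unadjusted p under 0.05 (beside 11.2% of all genes) and the median was 0.11. Slc6a19, the brush border carrier of neutral amino acids, had 121, 155 and 103 FPKM in HS_AOS 1, 2 and 3, against 57.96, 65.5 and 56.2 FPKM in HS 1, 2 and 3, without overlap (log2 1.05, adjusted p = 0.0734), and Slc7a9, a subunit of the cystine carrier, averaged 80.1 ± 17.5 FPKM in HS_AOS and 56.1 ± 6.03 FPKM in HS (log2 0.49, adjusted p = 0.189). In the renin-angiotensin list 1 of 9 passed, higher (11.1%, beside 1.34% of all genes): Enpep, the aminopeptidase that trims angiotensin II, had 55.1, 65 and 63.5 FPKM in HS_AOS 1, 2 and 3, against 49.5, 35.9 and 35.7 FPKM in HS 1, 2 and 3 (log2 0.60, SE 0.151, adjusted p = 0.0484). Of 10 genes tested in the list for gut microbial metabolites, 1 passed, higher (10.0%, beside 1.34% of all genes). Fmo2, a flavin-containing monooxygenase and so neither a carrier nor a sensor, had 128, 122 and 110.4 FPKM in HS_AOS 1, 2 and 3, against 74.9, 88.4 and 80.9 FPKM in HS 1, 2 and 3, well apart (log2 0.56, SE 0.122, adjusted p = 0.0327). With the GC and length trend removed Fmo2 did not pass (log2 0.42, adjusted p = 0.22). The list's median was 0.13 as tested and -0.04 in that fit. With the clock score as a covariate Fmo2 did not pass either (log2 0.33, adjusted p = 0.103).

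Markers of later segments were lower or level. All 12 tested genes of the thick ascending limb had a negative log2 change (median -0.35). HS 2 was the highest of the 3 HS libraries for 10 of the 12 (83.3%, beside 37.0% of all tested genes). HS 1 lay inside the HS_AOS range for 7 of the 12 and HS 3 for 6. The median was -0.23 without HS 2 and -0.45 without HS 1. For 3 of the 12 HS_AOS lay wholly below HS, beside 11.3% of all genes. Of the 12, 0 passed limma, with 2 lower at an unadjusted p under 0.05, beside 9.8% of all genes. Umod, the most abundant protein of normal urine, had 395, 218 and 364 FPKM in HS_AOS 1, 2 and 3, against 441, 635 and 498 FPKM in HS 1, 2 and 3, without overlap (log2 -0.72, adjusted p = 0.186), and Bsnd, a chloride channel subunit, 12.1, 11.7 and 12.3 FPKM in HS_AOS 1, 2 and 3, against 13.2, 20.2 and 16.4 in HS 1, 2 and 3 (adjusted p = 0.105). In these bulk samples fewer cells of a type and less RNA per cell cannot be told apart. The median was -0.19 over 10 genes of the distal convoluted and connecting tubule and -0.39 over 10 of principal cells. It was 0.02 over 11 of intercalated cells and 0.04 over 10 of podocytes. In these 4 lists 0 genes passed limma, with 2, 1, 1 and 0 at an unadjusted p under 0.05, all lower, beside 9.8% of all genes.

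Markers of cells outside the tubule gave 0 calls too. The median was -0.16 over 16 endothelial genes and -0.09 over 18 genes of macrophages and antigen presentation. Neither list, nor the 4 lymphocyte genes tested, held a gene at an unadjusted p under 0.05. For erythroid markers the summed level was 7306, 4488 and 4688 FPKM in HS_AOS 1, 2 and 3, against 10792, 8433 and 18861 FPKM in HS 1, 2 and 3, and 7 of 8 tested members had a negative log2 change. Hba-a1, alpha globin, had 4655, 2818 and 2905 FPKM in HS_AOS 1, 2 and 3, against 6857, 5942 and 12581 FPKM in HS 1, 2 and 3, without overlap (log2 -1.25, adjusted p = 0.136), and its split from Hba-a2 is uncertain because the copies are near-identical. The part of blood in the other differences was not tested. Adipose markers had a median of -1.07 with all libraries and of 0.07 without HS 3, the library that carried them. Of the 2 adrenal genes tested, Akr1b7 and Star, 0 passed limma, and of 7 liver genes 0 passed, with 2 lower at an unadjusted p under 0.05.

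Injury and matrix genes gave no call. Of 13 genes of tubular injury 0 passed limma, 2 were lower at an unadjusted p under 0.05 (beside 9.8% of all genes), and the median was -0.26. Tnfrsf12a, the receptor of TWEAK, averaged 32.7 ± 4.78 FPKM in HS_AOS and 47.2 ± 14.6 FPKM in HS (log2 -0.48, adjusted p = 0.192). Krt18, a keratin of injured and distal tubules, had 6.99, 7.56 and 8.82 FPKM in HS_AOS 1, 2 and 3, against 10.9, 13.1 and 24.1 FPKM in HS 1, 2 and 3, without overlap (adjusted p = 0.198). Of 23 genes of the extracellular matrix and fibrosis 0 passed and the median was -0.13. At an unadjusted p under 0.05, 1 was higher and 1 lower, beside 11.2% and 9.8% of all genes. Acta2, the actin of smooth muscle and myofibroblasts, had 9.21, 6.93 and 6.64 FPKM in HS_AOS 1, 2 and 3, against 10.5, 17.3 and 27.4 FPKM in HS 1, 2 and 3, without overlap (log2 -1.09, adjusted p = 0.0763). Timp3, an inhibitor of matrix metalloproteinases, went the other way without passing, with 637, 839 and 756 FPKM in HS_AOS 1, 2 and 3, against 601, 593 and 471 FPKM in HS 1, 2 and 3 (log2 0.42, adjusted p = 0.234), also without overlap. Of 15 chemokines and NF-kB targets 0 passed and 0 had an unadjusted p under 0.05, with a median of -0.00.

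**Figure D5:**
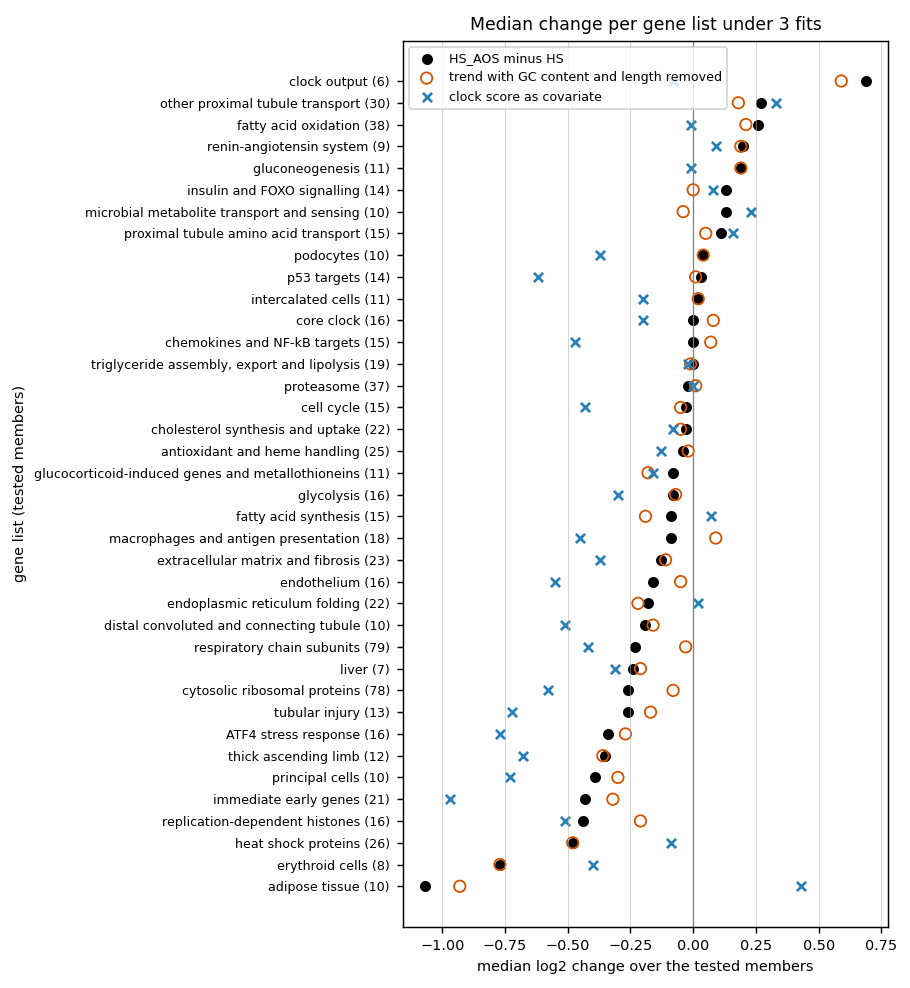
Median log2 change, HS_AOS minus HS, over the tested members of each gene list with at least 5 of them (number in brackets), as tested (black points), after removal of the GC and length trend (open circles) and with the clock score as a covariate (crosses). The black point and the open circle of the heat shock list both stand at -0.48, while for respiratory chain subunits they stand at -0.23 and -0.03, and with the clock score fatty acid oxidation stands at -0.01.

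To ask whether AOS acted differently on HS kidneys than on untreated ones, the difference HS_AOS minus HS was set against AOS minus control in the same fit. With limma 0 of 11865 genes passed, 1835 (15.5%) had an unadjusted p under 0.05, and the smallest adjusted p was 0.115, of Hist2h2aa1. No change above is therefore shown to be particular to HS kidneys. Ppara averaged 10.8 ± 0.554 FPKM in AOS kidneys and 10.7 ± 1.64 in control kidneys, and the difference of the 2 effects was 0.77 on the log2 scale (SE 0.2, adjusted p = 0.182). Hspb1 averaged 20.2 ± 3.83 FPKM in AOS kidneys and 29.2 ± 12 in control kidneys (difference of the effects -1.63, SE 0.617, adjusted p = 0.245). Slc22a5 averaged 63.4 ± 1.45 FPKM in AOS kidneys and 78.3 ± 6.62 in control kidneys, the opposite order to that of HS_AOS and HS (difference of the effects 0.74, SE 0.155, adjusted p = 0.142).

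Across the remaining groups the leading genes differed in their levels, given here without a test. Ppara averaged 19.5 ± 0.798 FPKM in HS_AOS_FMT and 20.8 ± 3.4 in HS_control_FMT, both near the 21.5 ± 4.02 of HS_AOS. Mttp averaged 7.58 ± 0.282 FPKM in HS_AOS_FMT and 5.45 ± 0.869 in HS_control_FMT, where the 9.98 ± 1.4 of HS_AOS was the highest mean. Hspb1 averaged 52.2 ± 14.5 FPKM in HS_AOS_FMT and 195 ± 54.8 in HS_control_FMT, and the 16.1 ± 2.33 of HS_AOS was the lowest mean of the 6 groups. Slc9a3 averaged 38.7 ± 1.94 FPKM in HS_AOS_FMT and 24.4 ± 0.925 in HS_control_FMT. For Slc9a3 the 2 groups whose labels hold both HS and AOS had the highest means.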

How the data were processed

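Kidney RNA was sequenced in 18 samples, in 6 groups of 3. The deposited table gives 1 FPKM value per gene symbol and sample, made by the authors before deposit. No label states that unit, which was inferred: sums of value times transcript length varied by 0.93% between samples (coefficient of variation) and plain sums by 4.29%. Bowtie 0.12.2 is named as a tool and mm10 as the build, per the submitters' processing notes. How values per gene were made, with which annotation, strand setting and filter, is not given in the sources used here. No counts are given, so no count test was run, depth is known only roughly, and no interval per value was given.

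Values were taken as log2(FPKM + 1). The test took the 11865 of 19545 genes that reached 1 FPKM in 3 or more of the 6 HS_AOS and HS samples. A model with 1 mean per group over all 18 samples was fitted with limma 3.58.1 under R 4.3.3, with its trend and robust settings and 12 residual degrees of freedom, with Benjamini-Hochberg adjustment over all genes tested and a threshold of 0.05. The fit was checked on simulated data. Alternatives included a block by replicate number, removal of the trends of GC content and log2 transcript length from each library (natural splines, 4 degrees of freedom each, GENCODE transcripts), a clock score as a covariate, other filters, pseudocounts and normalization, array weights, fits on fewer libraries, and each library left out in turn. Left-out fits assume that the 2 samples remaining in a group vary like the other groups.

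Named genes were the 12 raised and 12 lowered that changed most among the genes called, with groups apart and 2 FPKM or more as the mean of the higher group, leaving out predicted genes and pseudogenes, the members of the 41 gene lists that passed (at most 6 per list), and the 2 members with the smallest p where 0 passed, of which not all are printed. Clock genes are given. A few genes are left out of the text and plots and are not reported here, but they stay in the fits and counts. The members and lists were chosen with earlier results of these data known. Of the symbols, 3 stand on 2 rows each and are not named. Positions and promoter sequences are from RefSeq (GRCm38.p6).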

Additional observations from a re-analysis of the deposited data

How the results depend on the processing

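The number of genes called in HS_AOS against HS was 328 (159 higher, 169 lower). It was 144 (69 higher, 75 lower) with the replicate number as a block, a fit with less residual freedom, 10 (5 and 5) with the GC and length trend removed and 4 (3 and 1) with both. It was 505 (297 and 208) with quantile normalization, 166 (77 and 89) with no filter, 1 (0 and 1) with HS_AOS and HS alone in the fit, 890 (470 and 420) with control 3 out of the fit, 0 (0 and 0) without the 3 adrenal-rich libraries, 4621 (2348 and 2273) with array weights, 10 (0 and 10) where the log2 change also had to reach 1, and 1135 (342 and 793) with the clock score as a covariate. With the clock score and the GC removal together 249 genes passed, 72 higher. With single libraries left out the count ranged from 0 to 826, the higher genes from 0 to 413 and the lower genes from 0 to 413. The count with control 3 out of the fit held all 328, and that with array weights did too.

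No pairing by replicate number was seen between HS_AOS and HS: the correlation of deviations between same-numbered libraries was -0.053, -0.083 and -0.034. The other groups were not checked, and whether the numbers mark a shared batch was not tested further. Of the 144 genes called with the block, 139 were among the 328.

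For the difference of the AOS effects between HS and control, 0 genes passed as tested, 199 with no filter, 9 with genes at 1 FPKM in 3 of the 18 samples, 2201 with array weights, and 0 to 8 with single libraries left out. The cause of these differences between settings was not tested. Of 112 named genes 40 were called, and 0 called changes turned round under any of the 22 alternatives. The groups of called genes do not overlap, so left-out libraries, filters and pseudocounts could not turn a change round. Of the 40 calls, 0 remained without HS 2, without HS 3 or without the 3 adrenal-rich libraries. With the GC and length trend removed 2 of the 40 remained. The table holds no counts, so what depth limits at low levels could not be measured.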
